A study of Homo sapiens with 10 samples.

Results

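The GABA-A receptor subunits described here are 7 genes, GABRA2, GABRA3, GABRA4, GABRA5, GABRB1, GABRB2 and GABRG3, taken by name from the 57820 gene identifiers of the count files. All 7 had an identifier, and 4 of them (GABRA2, GABRA3, GABRA5 and GABRB1) passed the filter on low counts and were among the 16006 genes tested. GABRA4, GABRB2 and GABRG3 did not pass and are given as counts. The members were measured by poly(A) RNA sequencing in D425 and HD-MB03, cell lines established from Group 3 medulloblastoma, a childhood tumour of the cerebellum.

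The groups were D425 cells labelled shCRX (3 libraries), D425 controls (2 parental and 1 vector library), HD-MB03 cells labelled shCRX (2 libraries) and HD-MB03 controls (1 parental and 1 vector library). The shCRX populations were polyclonal and carried a hairpin against CRX, a photoreceptor transcription factor, in the doxycycline-inducible lentiviral vector Tet-pLKO-puro. The vector controls carried the same vector without a hairpin and the parental cells were not transduced. The labels give 1 doxycycline treatment, 4 µg/ml for 72 h, for all 10 libraries. CRX was targeted with both of a pair of hairpins. Which one a library carries is not labelled, so a shCRX group may mix them.

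GABA-A receptors are pentameric chloride channels opened by the inhibitory transmitter GABA. The common brain receptor joins alpha, beta and gamma subunits: GABA binds between alpha and beta subunits, benzodiazepines bind between alpha and gamma, and the gamma subunit also helps to hold the receptor at synapses. Delta and epsilon subunits can take the place of gamma in receptors that benzodiazepines do not modulate in the classical way, and rho subunits form channels of their own, best known in the retina. The alpha5 subunit, encoded by GABRA5, is abundant in the hippocampus, where it is often found outside synapses, and GABRA5 RNA is a known marker of Group 3 medulloblastoma.

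Between 1.96 and 18.1 M reads per library were counted in genes. The HD-MB03 controls were the shallowest libraries, at 1.96 and 2.08 M, and 26.4% and 30.9% of their reads were not aligned, against 4.54% to 7.99% in the other 8 libraries. The libraries fall into a set numbered 20 to 62 (D425 shCRX and HD-MB03 controls) and a set numbered from 110 upwards (D425 controls and HD-MB03 shCRX). Within a line this numbering and the arm cannot be told apart, while the comparison of the lines over both arms has both sets on each side. CRX itself was 20.3, 20.9 and 25.3 CPM (counts scaled by library size) in D425 shCRX libraries, against 47.5, 29.7 and 64.9 CPM in D425 controls, a log2 difference of -1.10 ± 0.26 (SE; edgeR adjusted p = 0.0436). That call was kept under 5 of 21 alternatives; of the fits that leave out 1 library it was kept without D425 parental replicate 2 alone, with adjusted p up to 0.171 without the D425 vector library. In HD-MB03 it went against the label, at 27.7 and 23.5 CPM in the libraries labelled shCRX, against 12.5 and 12.3 CPM in controls (log2 difference 1.04 ± 0.36, adjusted p = 0.174). Of 7 Group 3 marker genes, all but NPR3 were present in both lines, with summed levels of 2977 to 4654 CPM in D425 shCRX, 5539 to 6374 CPM in D425 controls, 7293 to 7553 CPM in HD-MB03 shCRX and 6989 to 8772 CPM in HD-MB03 controls. Markers of the other medulloblastoma groups summed to at most 0.501 CPM per library for 3 Group 4 genes, 3.58 CPM for 3 SHH genes (SFRP1 in HD-MB03 shCRX replicate 2 being 2.79 CPM of it) and 0.831 CPM for 2 WNT genes, with KCNA1, ATOH1 and WIF1 at 0 in every library. The summed level of 3 leukocyte markers was 0.207 to 2.30 CPM in D425 shCRX libraries and 0.726 to 10.7 CPM in D425 controls, with AIF1 at 0 in both.

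Subunit genes of the same cluster differed widely in their counts. On chromosome 4 the genes lie in the order GABRG1, GABRA2, GABRA4 and GABRB1, with COX7B2 between GABRA2 and GABRA4. On chromosome 15 GABRA5 lies beside GABRG3. GABRA2 had 4558 counts in D425 and 3303 in HD-MB03, whereas GABRA4 of the same cluster had 1 count in each line. The RefSeq promoter table (GRCh38.p14) holds 5 of the 7 members, GABRA2 with 3 start sites; GABRA3 and GABRA5 are not among them. The 250 bases before the start are printed for the 3 members of the chromosome 4 cluster and for GABRG3 of chromosome 15. Their counts in D425 range from 4558 for GABRA2 to 0 for GABRG3, which are not neighbours. Each CpG dinucleotide is in capitals, 5′ to 3′ on the gene's own strand. The windows are chr4:46390301-46390550 on the minus strand for the first GABRA2 start, chr4:46993582-46993831 on the minus strand for GABRA4, chr4:47031317-47031566 on the plus strand for GABRB1, and chr15:26970931-26971180 on the plus strand for GABRG3.
GABRA2: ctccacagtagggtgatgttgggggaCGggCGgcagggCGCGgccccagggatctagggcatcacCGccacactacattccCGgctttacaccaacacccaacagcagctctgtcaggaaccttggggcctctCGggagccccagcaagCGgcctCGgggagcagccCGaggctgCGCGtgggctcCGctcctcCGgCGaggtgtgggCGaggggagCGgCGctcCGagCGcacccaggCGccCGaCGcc
GABRA4: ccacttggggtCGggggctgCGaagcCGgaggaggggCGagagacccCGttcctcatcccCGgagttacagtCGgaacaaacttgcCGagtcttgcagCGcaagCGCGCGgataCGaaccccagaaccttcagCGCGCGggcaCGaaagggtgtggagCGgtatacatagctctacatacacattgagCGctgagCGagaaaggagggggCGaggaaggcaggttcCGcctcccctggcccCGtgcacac
GABRB1: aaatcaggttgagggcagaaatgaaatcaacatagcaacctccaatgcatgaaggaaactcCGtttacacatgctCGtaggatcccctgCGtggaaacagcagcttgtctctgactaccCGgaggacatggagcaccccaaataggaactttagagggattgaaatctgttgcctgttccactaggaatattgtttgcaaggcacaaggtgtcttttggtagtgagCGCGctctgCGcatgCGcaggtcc
GABRG3: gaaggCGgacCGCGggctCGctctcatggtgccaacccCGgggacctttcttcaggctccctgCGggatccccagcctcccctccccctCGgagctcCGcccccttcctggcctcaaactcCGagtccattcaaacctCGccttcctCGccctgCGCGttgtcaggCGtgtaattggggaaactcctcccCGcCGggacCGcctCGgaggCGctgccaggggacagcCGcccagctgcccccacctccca

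The GABRA4 and GABRG3 windows were about as rich in CpG as the first GABRA2 window and richer than the other 2. The printed GABRA2 window held 23 CpG at 71.2% GC, the GABRA4 window 23 CpG at 63.6% GC and the GABRG3 window 20 CpG at 69.6% GC. The other 2 GABRA2 windows, not printed, held 10 CpG at 52% GC and 6 CpG at 50.4% GC. Counts per gene cannot tell which GABRA2 start these cells used. The GABRB1 window held 8 CpG at 49.2% GC, and the median over the 35116 windows of the table was 11 CpG at 58% GC. The hexamer TAATCC, the sequence that CRX is known to prefer, was searched on both strands of the whole 300-base windows, which add 50 bases after the start. It was in 0 of the 7 member windows and in 6.36% of all windows, which says only that these letters are not in these windows.

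Of the 4 tested members, GABRA5 differed most between the arms in D425. It had 6.55, 9.31 and 12.02 CPM in D425 shCRX libraries, against 45.0, 23.2 and 29.4 CPM in D425 controls. Every shCRX library lay below every control, and the arms did not overlap, which carries little weight alone with so few libraries. The level was 9.29 ± 2.73 CPM in shCRX cells, against 32.5 ± 11.3 CPM in controls (SD, n = 3 each), 3.60-fold lower. In edgeR's quasi-likelihood test this was a log2 difference of -1.85 ± 0.29 (SE; 95% interval -2.47 to -1.23) with a Benjamini-Hochberg adjusted p of 0.00545. GABRA5 was thereby the 1 of 4 tested members called in D425, where 2.97% of all genes were called, 1.61% higher and 1.37% lower. The call was kept under 20 of 21 alternatives, the leave-one-out fits among them, and was lost against the single vector library (log2 difference -1.72, adjusted p = 0.123). In these bulk samples fewer cells of a type and less RNA per cell cannot be told apart.

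In HD-MB03 GABRA5 was higher in both arms than in any D425 library. It had 92.1 and 77.4 CPM in the libraries labelled shCRX, against 128 and 108 CPM in HD-MB03 controls. Both libraries labelled shCRX again lay below both controls, but the log2 difference was -0.48 ± 0.32 (95% interval -1.17 to 0.21) and did not pass the test (adjusted p = 0.470). No member passed in HD-MB03, where 1.51% of all genes were called. The count was 0 of 4 by edgeR, DESeq2 and limma-voom, and 0 at an unadjusted p under 0.05. GABRA3 had 0 counts in every HD-MB03 library, so it could not be called there. The log2 response of GABRA5 was -1.37 ± 0.43 in D425 minus HD-MB03 (adjusted p = 0.0919), which missed the threshold. In that comparison edgeR called 4.16% of all genes. Of the 4 members 0 were called by edgeR, DESeq2 or limma-voom, with 2 members, GABRA2 and GABRA5, at an unadjusted p under 0.05. Without counts in HD-MB03, GABRA3 could not be called in this comparison either.

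**Figure D1:**
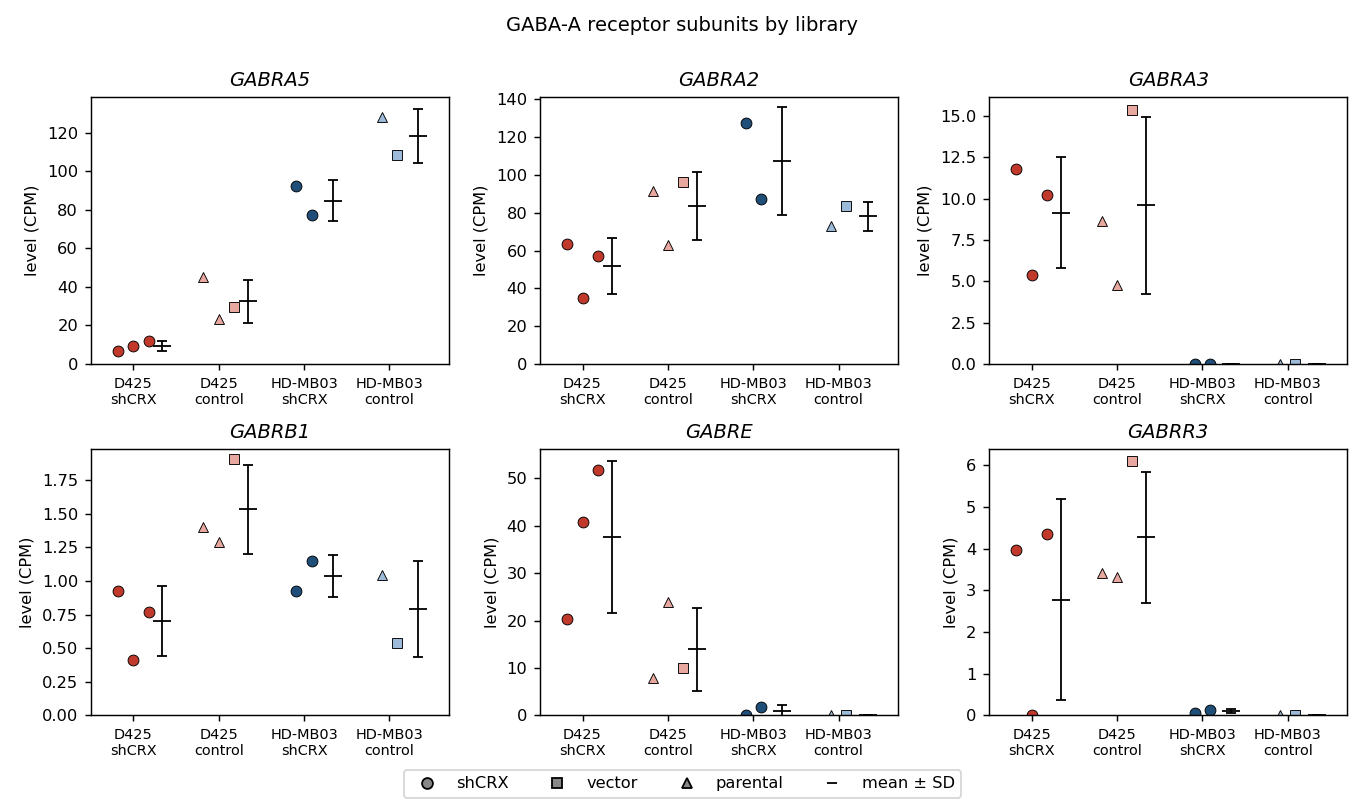
Levels in CPM (linear axes from 0) of 4 members and of GABRE and GABRR3 in each library, by line and arm; circles are shCRX, squares vector and triangles parental libraries, and the bar is the mean ± SD of the group. GABRA5 lies between 6.55 and 12.02 CPM in D425 shCRX libraries, below all 3 D425 controls, and GABRA3 is at 0 in every HD-MB03 library.

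GABRA2 encodes alpha2, an alpha subunit of forebrain synapses. It had 63.6, 35.0 and 57.0 CPM in D425 shCRX libraries, against 91.5, 63.2 and 96.3 CPM in D425 controls. The arms overlapped, since the highest shCRX library lay just above the lowest control. The log2 difference was -0.69 ± 0.25 (95% interval -1.23 to -0.14, adjusted p = 0.173). In HD-MB03 it had 128 and 87.3 CPM in the libraries labelled shCRX, against 72.9 and 83.6 CPM in controls. Here the libraries labelled shCRX were the higher ones without overlap, which carries little weight with so few libraries. The log2 difference was 0.46 ± 0.31 (adjusted p = 0.481). The difference between the lines was -1.14 ± 0.40 (adjusted p = 0.127). None of these GABRA2 differences passed the test.

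GABRA3 encodes alpha3, an alpha subunit of early postnatal brain and of monoaminergic neurons. It had 11.8, 5.38 and 10.2 CPM in D425 shCRX libraries, against 8.62, 4.76 and 15.4 CPM in D425 controls. The arms overlapped over their whole range, and the log2 difference was -0.05 ± 0.46 (95% interval -1.07 to 0.97, adjusted p = 0.978). In HD-MB03 it had 0 counts in all 4 libraries, where 3 counts over the line would be 0.0913 CPM. GABRA4, the alpha4 subunit that in the thalamus and dentate gyrus joins delta outside synapses, had 1 count in D425 and 1 in HD-MB03. Among the alpha genes that are not members, GABRA6, restricted in the brain largely to cerebellar granule neurons, had 0 counts in all 10 libraries.

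The beta subunits are the usual partners of alpha subunits. GABRB1 was low, with 10, 2 and 3 counts in D425 shCRX libraries, against 25, 16 and 21 counts in D425 controls. As levels these were 0.923, 0.414 and 0.767 CPM in shCRX cells, against 1.40, 1.29 and 1.91 CPM in controls, and the arms did not overlap. The log2 difference of -1.05 ± 0.52 did not pass the test (95% interval -2.17 to 0.08, adjusted p = 0.325). In HD-MB03 GABRB1 had 0.929 and 1.15 CPM in the libraries labelled shCRX, against 1.04 and 0.536 CPM in controls, and the arms overlapped. The HD-MB03 control levels rest on 2 counts and 1 count. GABRB2, the beta subunit most abundant in adult brain, had 2 counts in D425, both in controls, and 0 in HD-MB03.

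On chromosome 15 GABRG3, the gamma3 gene beside GABRA5, had 0 counts in all 10 libraries.

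The nearest protein-coding genes on either side of the chromosome 15 cluster that holds GABRA5 and GABRG3 were UBE3A, ATP10A, OCA2 and HERC2. None of the 4 passed the test in D425, where their log2 differences were -0.26 ± 0.17, -0.80 ± 0.71, 0.10 ± 0.23 and 0.04 ± 0.23. Beside the chromosome 4 cluster, GUF1 and GNPDA2 differed by -0.21 ± 0.17 and -0.64 ± 0.24, and COMMD8 and ATP10D by 0.39 ± 0.23 and 0.58 ± 0.27. These did not pass either (adjusted p from 0.181 for GNPDA2 to 0.595 for GUF1). Beside the chromosome 5 cluster that holds GABRB2 and GABRA6, the flanking gene ATP10B had 3 counts in all. PTTG1, CCNG1 and NUDCD2 differed in D425 by -0.07 ± 0.30, -0.82 ± 0.33 and -0.10 ± 0.18. None of them passed (edgeR adjusted p from 0.215 for CCNG1 to 0.945 for PTTG1).

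**Figure D2:**
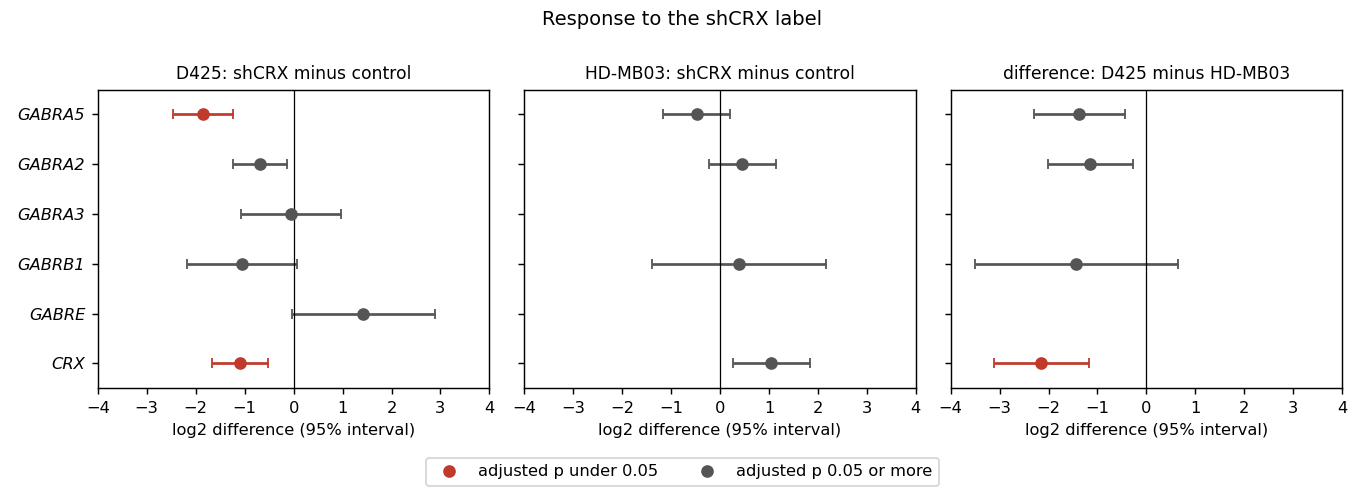
Log2 differences (shCRX minus control in the left and middle panels, D425 minus HD-MB03 in the right panel) with 95% intervals from the edgeR fit, for 4 members, GABRE and CRX; red points passed the test. GABRA3 and GABRE are shown in D425 alone because HD-MB03 controls held 0 counts of both; of the subunits, GABRA5 in D425 passed, and CRX lies on opposite sides of 0 in the lines.

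Of the gamma subunits, GABRG3 was at 0 and GABRG1 was close to it. GABRG1 had 3 counts in D425 parental replicate 1, 1 in D425 shCRX replicate 1, and 7 and 5 in the HD-MB03 libraries labelled shCRX, with 0 in the other 6 libraries. For GABRG3, 3 counts would be 0.0502 CPM over D425 and 0.0913 CPM over HD-MB03. The alpha genes GABRA2, GABRA3, GABRA4, GABRA5 and GABRA6 together summed to 12.9 ± 5.54 CPM per kilobase in D425 (SD, n = 6) and 32.2 ± 4.57 in HD-MB03 (n = 4). These are RNA levels, and neither protein nor assembled receptor was measured.

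Of the subunits that can stand in for gamma, epsilon was seen in D425 and delta was not. GABRE, encoding epsilon, had 20.3, 40.7 and 51.7 CPM in D425 shCRX libraries, against 7.95, 23.9 and 9.91 CPM in D425 controls. The arms overlapped through parental replicate 2, and the log2 difference of 1.42 ± 0.66 did not pass the test (95% interval -0.04 to 2.88, adjusted p = 0.303). In HD-MB03 all 26 GABRE counts came from the library labelled shCRX replicate 2, which held 0 counts of GABRA3. GABRD, encoding delta, had 1 count in the 10 libraries, in HD-MB03, and GABRP, encoding the pi subunit known outside the brain, had 0. Theta (GABRQ) had no matching identifier and was not analysed here.

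The rho subunits were low. GABRR3 had 3.97, 0 and 4.35 CPM in D425 shCRX libraries, against 3.42, 3.31 and 6.09 CPM in D425 controls, and the arms overlapped (log2 difference -0.59 ± 0.76, adjusted p = 0.755). It had 3 counts in HD-MB03, all in libraries labelled shCRX. GABRR2 had 21 counts in D425, 16 of them in the vector library, and 5 in HD-MB03. GABRR1 had 3 counts in D425 and 0 in HD-MB03.

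Levels of different genes were compared per kilobase of exon. In D425 the order was GABRA2 at 5.68 ± 1.91, GABRA5 at 5.03 ± 3.53, GABRE at 2.68 ± 1.80 and GABRA3 at 2.23 ± 0.956 CPM per kilobase (SD, n = 6 each). Each of these 4 overlapped with its neighbours in the order, although GABRA2 was above GABRA3 in 6 of 6 libraries. By arm, GABRE lay above GABRA5 in each D425 shCRX library (2.11, 4.24 and 5.38 against 1.58, 2.24 and 2.89) and below it in each D425 control. With the longest coding transcript as length, GABRE came next after GABRA2, at 8.17, and above GABRA5, at 6.43. Below them GABRA3 was above GABRR3 (0.618 ± 0.350) in 6 of 6 libraries without overlap, and GABRB1 stood at 0.356 ± 0.168. In HD-MB03 GABRA5 was first at 24.4 ± 5.23 CPM per kilobase, above GABRA2 at 7.79 ± 2.02 in 4 of 4 libraries and without overlap (n = 4). GABRB1 stood at 0.291 ± 0.0848 and did not overlap with GABRA2.

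**Figure D3:**
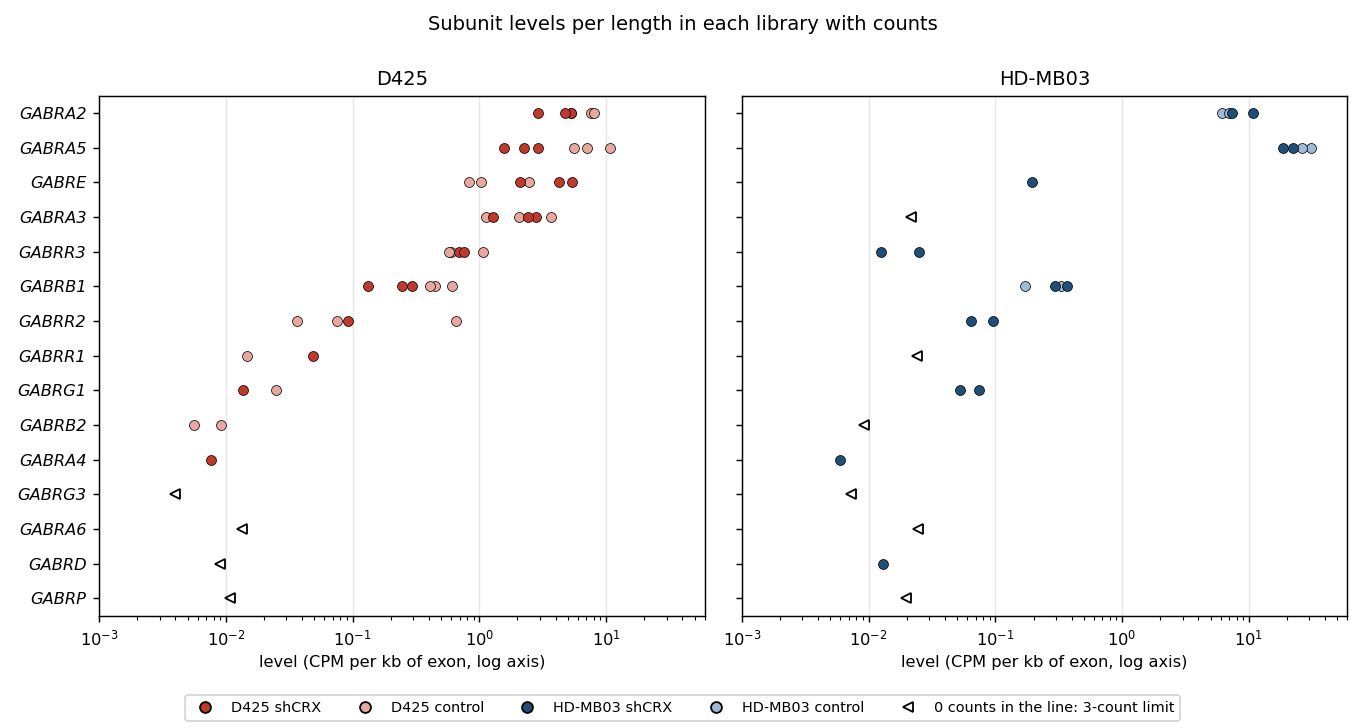
Level of 15 subunit genes in CPM per kilobase of exon (log axes), 1 point for each library with at least 1 count, ordered by the D425 mean; an open triangle marks the limit that 0 counts over the line allow. GABRA2 and GABRA5 come first by line mean in both lines, though GABRE lies above GABRA5 in each D425 shCRX library. GABRE and GABRA3 stand beside GABRA2 and GABRA5 in D425 alone, and GABRG3 and GABRA6 have no counts in either line.

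The share of GABRA5 in the alpha RNA was lower in the shCRX libraries of both lines, a difference that the few libraries could not carry past a test. In HD-MB03 this follows the label alone, since CRX was higher there in the libraries labelled shCRX. GABRA5 was 16.2%, 34.7% and 28.6% of the level per kilobase summed over those 5 alpha genes in D425 shCRX libraries, against 52.7%, 46.4% and 37.6% in D425 controls. In HD-MB03 it was 67.4% and 71.8% in the libraries labelled shCRX, against 83.5% and 78.8% in controls. In neither line did the arms overlap. The log2 ratio of GABRA5 to GABRA2 differed by -1.08 in D425 (-0.96 ± 0.71 in shCRX, 0.13 ± 0.35 in controls, SD, n = 3 each) and by -0.92 in HD-MB03 (1.20 ± 0.21 in shCRX, 2.12 ± 0.31 in controls, n = 2 each). The exact two-sided permutation p was 0.1 in D425 and 0.333 in HD-MB03 (0.2 and 0.381 after Benjamini-Hochberg adjustment over 8 comparisons), in each line the smallest the design allows, so neither could pass. GABRA3 took 28.9%, 19.9% and 24.1% of the alpha level in D425 shCRX, against 9.999%, 9.46% and 19.5% in D425 controls, also without overlap (exact p = 0.1, adjusted 0.2). Shares of 1 total move against each other, so a lower GABRA5 share raises the others.

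**Figure D4:**
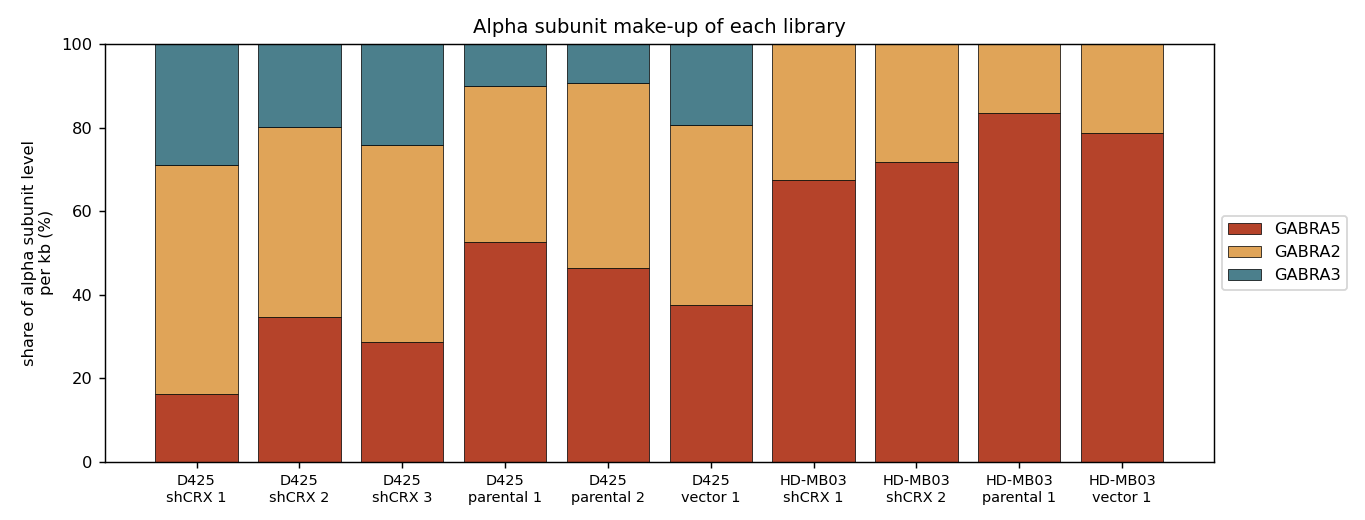
Share of the level summed over 5 alpha subunit genes (CPM per kilobase, in percent) taken by GABRA5, GABRA2 and GABRA3 in each library. GABRA5 takes 16.2% to 34.7% in D425 shCRX libraries and 37.6% to 52.7% in D425 controls, and GABRA3 has no share in HD-MB03.

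Between the lines, GABRA5 was lower and GABRA3 higher in D425. Over both arms GABRA5 averaged 20.9 ± 14.7 CPM in D425 and 101 ± 21.7 CPM in HD-MB03 (SD, n = 6 and 4), and the lines did not overlap. The log2 difference was -2.54 ± 0.21 (edgeR adjusted p = 1.07e-06), 5.83-fold lower in D425. Within the library numbers 20 to 62, where D425 shCRX meets HD-MB03 controls, it was -3.71 ± 0.32, and within the numbers from 110, where D425 controls meet HD-MB03 shCRX, it was -1.38 ± 0.28 (adjusted p = 0.00278). GABRA3 went the other way, with 576 counts in D425 and 0 in HD-MB03, at least 106-fold higher in D425 against a limit of 3 counts over the HD-MB03 libraries (adjusted p = 1.88e-05). That bound was 14.6-fold within 20 to 62 and 87.6-fold within the numbers from 110. These were 2 of the 4 tested members, 1 in each direction, in a comparison in which 46.0% of all genes were called, 24.4% higher and 21.6% lower in D425. The count of members is thus near the share of all genes. GABRA3, at 0 in HD-MB03, passed the filter through D425 alone, so it could only be called higher in D425. The same 2 members were called within each set, where 30.7% (20 to 62) and 31.2% (from 110) of all genes were called. GABRA2 (-0.48 ± 0.20, adjusted p = 0.0664) and GABRB1 (0.22 ± 0.49, adjusted p = 0.742) did not pass. GABRA2 did pass under 4 of 21 alternatives: without D425 shCRX replicate 1 (-0.52, adjusted p = 0.0487), without HD-MB03 shCRX replicate 2 (-0.60, adjusted p = 0.0429), after thinning to equal depth (-0.53, adjusted p = 0.0434) and after correction for GC content and length (-0.58, adjusted p = 0.0112).

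Among the other subunits GABRE averaged 25.7 ± 17.3 CPM in D425 and 0.466 ± 0.931 CPM in HD-MB03 and passed (edgeR adjusted p = 0.000536). Within 20 to 62 GABRE had 619 counts in D425 shCRX and 0 in HD-MB03 controls. That was at least 46.6-fold higher in D425 against a limit of 3 counts. Within the numbers from 110 its log2 difference was 3.88 ± 0.94 (adjusted p = 0.01). GABRR3, with 229 counts in D425 and 3 in HD-MB03, was 42.0-fold higher in D425 (95% interval of the counting error 14.2 to 205) and passed (adjusted p = 0.00282), as it did within the numbers from 110 (adjusted p = 0.00756) but not within 20 to 62 (adjusted p = 0.0724), where D425 shCRX replicate 2 was at 0. Like GABRA3, both GABRE and GABRR3 passed the filter through D425, so in effect they could only be called higher in D425. GABRE and GABRA3 lie near each other on the X chromosome among the MAGE and CSAG genes. There MAGEA10 had 31.8 CPM in D425 shCRX cells and 27.8 CPM in D425 controls and 0 counts in HD-MB03. Of the flanking genes, CNGA2 had 1 count in all and CSAG2 had no matching identifier. MAGEA4 had 0.585 CPM in D425 shCRX, 0.977 CPM in D425 controls and 0 in HD-MB03. MAGEA3 had 165 CPM in D425 shCRX, 157 CPM in D425 controls, 0.0358 CPM in HD-MB03 shCRX and 0 in HD-MB03 controls. Reads of MAGE genes can be shared between near-identical copies, and these values are uncertain. A difference of the whole region between the lines was not tested.

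The genes around the receptor came from 5 lists, on anchoring and trafficking, GABA synthesis and transport, the chloride gradient, GABA-B receptors and glycine receptors, with 31 of 45 genes tested. In D425 0 of the 31 were called by edgeR in the shCRX arm (7 at an unadjusted p under 0.05; 1 by DESeq2 and 0 by limma-voom), beside 2.97% of all genes. GPHN, encoding gephyrin, the scaffold of inhibitory synapses, had 33.3 ± 4.54 CPM in shCRX cells and 48.4 ± 2.18 CPM in controls (n = 3 each) and did not pass (adjusted p = 0.144). In HD-MB03 0 of the 31 were called by edgeR (4 at an unadjusted p under 0.05; 1 by DESeq2 and 0 by limma-voom), beside 1.51% of all genes. The median log2 difference in D425 was -0.15 over the 13 anchoring genes, 0.17 over the 4 synthesis genes, 0.07 over the 9 chloride genes and -0.27 over the 4 GABA-B genes, beside 0.02 over all genes tested.

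Of the genes for GABA synthesis and storage, GAD1 was detected in each D425 library. GAD1, which makes GABA from glutamate, had 8.84 ± 4.54 CPM in D425 shCRX cells and 2.32 ± 0.996 CPM in D425 controls; the arms did not overlap, and the log2 difference of 1.92 ± 0.72 did not pass (adjusted p = 0.185). GAD2 had 1 count over the 10 libraries, and SLC32A1, the vesicular transporter of GABA, had 0. The summed level of 5 GABAergic neuron markers, GAD1 among them, was 19.3 to 46.7 CPM in D425 shCRX libraries and 8.09 to 14.6 CPM in D425 controls, with GAD2 and SLC32A1 at 0 in both; its part in the GABRA5 difference was not tested. SLC12A2 (NKCC1), which loads cells with chloride, had 139 ± 28.3 CPM in D425 shCRX, 124 ± 19.5 CPM in D425 controls, 85.4 ± 1.90 CPM in HD-MB03 shCRX and 77.6 ± 0.611 CPM in HD-MB03 controls. SLC12A5 (KCC2), which extrudes chloride in mature neurons, had 10 counts in D425 shCRX, 28 in D425 controls, 10 in HD-MB03 shCRX and 0 in HD-MB03 controls.

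Between the lines 10 of these 31 genes were higher and 10 lower in D425 over both arms, where 24.4% of all genes were higher and 21.6% lower. Of those named below, GAD1 passed the filter through D425, and LHFPL4, SLC6A11, SLC12A7 and GABBR2 through HD-MB03. In effect each of them could only be called higher in that line. Among the anchoring genes 5 were higher and 3 lower: RDX, encoding radixin, which anchors alpha5 receptors outside synapses, was higher in D425 (log2 difference 1.19 ± 0.18) and so was GABARAPL1, of the GABARAP family (1.87 ± 0.32). GPHN was lower in D425 (-0.57 ± 0.14; not called with parental libraries alone as controls, at -0.46 and adjusted p = 0.0660), as was LHFPL4, which helps receptors reach synapses (-2.85 ± 0.56, at levels under 3.22 CPM). In the synthesis list GAD1 was higher in D425 (3.44 ± 0.87), with 17 counts in HD-MB03 shCRX, all in replicate 2, and 1 in HD-MB03 controls. Without that replicate the GAD1 difference was 6.16, and with vector libraries alone as controls it was not called (2.76, adjusted p = 0.138). In the same list ALDH5A1, which breaks GABA down further, was lower (-1.49 ± 0.25). SLC6A11, the transporter GAT3, had 1 count in D425 shCRX and 3 in D425 controls, against 405 in HD-MB03 shCRX and 123 in HD-MB03 controls, and averaged 23.5 CPM in HD-MB03. Of the chloride genes 4 were higher and 3 lower, among them CLCN3 at 1.06 ± 0.21, SLC12A2 at 0.69 ± 0.16 and SLC12A7 (KCC4) at -4.03 ± 0.64. The SLC12A7 difference was -3.01 without HD-MB03 parental replicate 1 and was not called with vector libraries alone as controls (-2.47, adjusted p = 0.0617). Of the GABA-B genes 2 were lower: GABBR2, the subunit that couples to G proteins, had 0.185 CPM in D425 shCRX and 0.813 CPM in D425 controls, against 70.0 CPM in HD-MB03 shCRX and 92.2 CPM in HD-MB03 controls, and its auxiliary subunit KCTD12 differed by -2.10 ± 0.25. The glycine receptor subunit GLRB, the 1 gene of its list tested, did not pass.

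**Figure D5:**
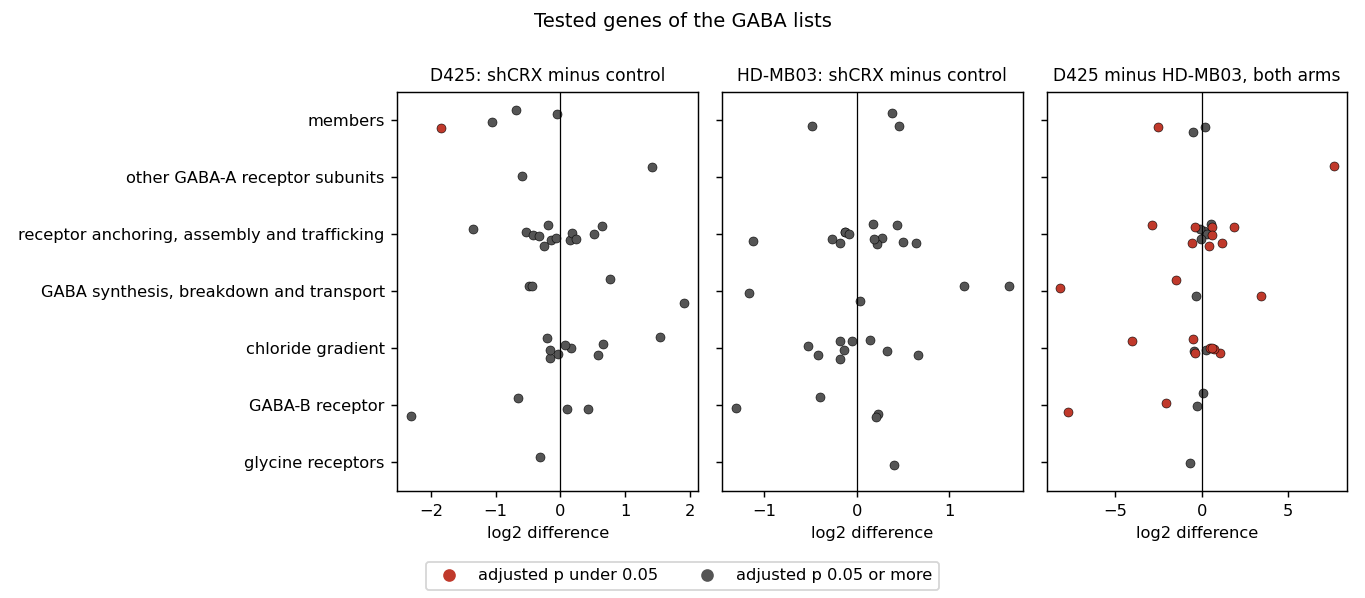
Log2 differences of the tested genes of 7 lists, each gene a point, with red for those that passed the edgeR test; fits against a group at 0 counts (GABRA3, GABRE and GABRR3) are left out where they arise, except GABRE between the lines. In D425 GABRA5 is the red point, in HD-MB03 there are none, and between the lines red points lie on both sides of 0.

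Among 2613 protein-coding genes with a mean of at least 1 CPM and a spread of at least 0.5 (root mean square of line-centred log2 values), the 5 whose pattern over the 10 libraries was most like that of GABRA5 were CD44, MOCS1, CNTNAP2, RXRG and CACNG5. Their root mean square differences from it, on line-centred log2(CPM + 0.5), were 0.273, 0.290, 0.307, 0.311 and 0.313, beside a median of 1.08 over all candidates and 0.615 for CRX. CD44, which encodes a cell adhesion receptor, had 0 CPM in D425 shCRX and 0.781 CPM in D425 controls, levels at which the added 0.5 limits its spread, and 26.1 CPM in HD-MB03 shCRX and 34.5 CPM in HD-MB03 controls. MOCS1, an enzyme gene of molybdenum cofactor synthesis, had 32.7 CPM in D425 shCRX, 99.4 CPM in D425 controls, 14.7 CPM in HD-MB03 shCRX and 18.8 CPM in HD-MB03 controls. RXRG, a retinoid receptor of cone photoreceptors, had 82.1 CPM in D425 shCRX, 218 CPM in D425 controls, 90.1 CPM in HD-MB03 shCRX and 120 CPM in HD-MB03 controls. All 5 had a lower mean in the libraries labelled shCRX of both lines, which is what the likeness selects; in HD-MB03 CRX itself went against that label.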

How the data were processed

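RNA of 10 libraries was poly(A)-enriched and made into libraries with the Illumina TruSeq RNA kit, per the labels' protocols. The authors deposited raw read counts for each gene, 1 file per library, without normalisation. The human build was GRCh37 (hg19) and the tools were DESeq2, HTSeq, HISAT2 and bcl2fastq, per the submitters' processing notes; their versions and the strand setting of the counting are not given in the sources used here, so reads of a gene and of an antisense partner may not be told apart. Of 57820 identifiers 51996 matched a symbol, and the 5 summary entries were left out of library sizes. Lengths came from GENCODE 29 (GRCh38), another build, and the order of neighbouring genes from RefSeq. Promoter sequences and the positions of their windows are RefSeq's (GRCh38.p14), and no other positions are given. Reads counted in genes were 50.5% to 79.3% of all reads, and 3 counts corresponded to 0.166 to 1.53 CPM. Poisson intervals and floors cover counting error only and use unscaled totals, while CPM uses effective library sizes.

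The counts were tested in R 4.3.3 with edgeR 4.0.16 (TMM scaling, filterByExpr, robust quasi-likelihood fit of 4 group means with 6 residual degrees of freedom), two-sided, with Benjamini-Hochberg adjustment over all 16006 tested genes and a threshold of 0.05. The fit was tested on simulated data. Levels per kilobase used the length of all exons of a gene. A gene's SE was taken from its F statistic. DESeq2 1.42.0 and limma-voom (limma 3.58.1) were among the alternatives, with other scaling, no filter, vector or parental libraries alone as controls, each library left out and a replicate block; GC and length correction, thinning to equal depth, fits of 1 line alone and coding transcript length were added after seeing the data.

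The labels do not say that replicates were separate cultures, so p-values reflect only how these samples vary, which may be technical variation. No 2 libraries were identical, and pairs within an arm were further apart than sampling noise (9.23 to 52.8 chi-square units per degree of freedom). Arms without overlap carry little weight alone. The smallest exact two-sided permutation p is 0.1 for 3 libraries against 3 and 0.333 for 2 against 2. The share of all genes whose arms do not overlap is not given. The members and the gene lists were chosen with earlier results of these data known. Named genes were the members, CRX, the other subunits, at most 4 called genes per list and comparison, the 2 nearest protein-coding genes beside each cluster and the 5 genes most like GABRA5. Some genes of these lists are not reported here, and counts and sums over the lists leave them out. GAD1, GPHN, the chloride transporters and the genes at 0 were named also where they were not called.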

Additional observations from a re-analysis of the deposited data

Results flagged for a closer look

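The response of CRX to the shCRX label was not the same in the 2 lines: the log2 difference of the responses was -2.14 (D425 minus HD-MB03, SE 0.45, edgeR adjusted p = 0.0199). That call was kept under 13 of 19 alternatives. CRX was lower in all 3 D425 shCRX libraries than in all 3 D425 controls, and higher in both HD-MB03 libraries labelled shCRX than in both HD-MB03 controls. Any direction drawn from the HD-MB03 arms therefore follows the labels alone. The difference missed the threshold without HD-MB03 shCRX replicate 1 (-2.03, adjusted p = 0.0795), without HD-MB03 parental replicate 1 (-2.18, 0.105) and without the vector library of that line (-2.17, 0.0601).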

How the results depend on the processing

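The GABRA5 difference in D425 ranged from -2.10 to -1.53 with 1 library left out, called in 10 of 10 fits, and was -2.12 ± 0.36 with a replicate block (adjusted p = 0.0271); against the vector library alone it was -1.72 and not called. The replicate numbers pair the samples in name only (correlation of the parental and shCRX deviations 0.02 over 16006 genes), and under the block 117 genes and 1 member were called in D425. The difference of the GABRA5 response to the shCRX label (D425 minus HD-MB03) was called with no filter (-1.51) and ranged from -1.59 to -1.04 with 1 library left out; the GABRA5 level difference between the lines ranged from -2.71 to -2.38. Without a filter 2 members, GABRA2 and GABRA5, were called in D425 and 2 in the difference, and 0 in D425 against the vector library alone; the line comparison called 2 to 3 members with 1 library left out.

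Counts of called genes moved most. In D425 they were 1211 with no filter, 990 by DESeq2, 8 with vector and 104 with parental controls alone, 307 after thinning, and 185 to 430 with 1 library left out, against 476. In HD-MB03 they were 790, 793, 1 and 62 in the same order, 144 after GC and length correction, 495 with HD-MB03 alone and 15 to 329 with 1 library left out, against 241. In the difference they were 1579, 1358, 3 and 227, 309 after GC and length correction and 177 to 841 with 1 library left out, against 666. Between the lines 4613 were called with vector libraries alone and 5942 to 7883 with 1 left out, against 7365.

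Uncalled values that changed sign were GABRA3 in D425 (0.10 with library totals, 0.12 by limma-voom, 0.44 with parental controls, 0.29 with the block, 0.15 after thinning, 0.20 without shCRX replicate 2, and -0.41 to 0.45 with 1 library left out, the highest without the vector library) and GABRA2 in HD-MB03 (-0.0756 after GC and length correction). GABRB1 between lines was -0.0574 with parental libraries alone and -0.11 within 20 to 62. The causes were not tested. In all, 668 of 744 values over 38 results kept their direction and side of the threshold. The shallow HD-MB03 controls limit GABRB1 and the genes at 0.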
